A study of Mus musculus with 31 samples.

Results

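Of 247207 autosomal bins of 10 kb, 335 carried H3K27me3 peaks in mouse primordial germ cells at E13.5 in males, at E13.5 in females and at E10.5, and these bins merged into 228 regions. A bin was counted as held by a group when at least 1 kb of it lay in merged H3K27me3 peaks in 2 or more of the group's 3 peak lists, and a kept bin is one that all 3 groups held. Bins were laid on chromosomes 1 to 19 of the mouse build mm9 from the first base, and neighbouring kept bins were joined into regions. The kept bins made up 0.136% of all autosomal bins, or 3.35 Mb. Because H3K27me3 peaks chose these bins, their H3K27me3 amounts, widths and directions are a description and carry no test, whereas H3K9me3 played no part in the choice.

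Primordial germ cells are the embryonic precursors of eggs and sperm, and the series asked how their chromatin changes while DNA methylation is erased genome-wide. Cells were wild type on a C57BL/6 x GOF18delta_PE-EGFP background, in which a germ-cell EGFP reporter allows sorting by flow cytometry. The 3 groups were E13.5 male cells, E13.5 female cells and E10.5 cells, with 3 H3K27me3 and 3 H3K9me3 libraries each. At E10.5 the cells of several embryos were combined, and those libraries carry no sex label, so sex could not be matched between the stages. Each library came from 1000 cells by ultra-low-input native ChIP, in which unfixed chromatin is cut with micrococcal nuclease. Peak lists hold no expression values, so the identity of the sorted cells could not be checked against marker genes. Nothing in the labels ties a replicate to its own animal or litter, so the p-values below measure only the spread between libraries, which may be technical.

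H3K27me3, trimethylation of lysine 27 on histone H3, is laid down by Polycomb repressive complex 2 and marks genes that are held silent but can be switched on later. Its best-known broad domains lie over clusters of developmental regulators such as the Hox genes, where the mark spreads away from CpG-rich nucleation sites. H3K9me3 marks constitutive heterochromatin and silenced repeats, and in many cell types the marks occupy largely separate chromatin.

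Read counts are not part of the peak lists, which leaves sequencing depth unknown, and the number of called peaks differed widely. The H3K27me3 lists held 3522, 359 and 5333 peaks in E13.5 male replicates 1, 2 and 3, then 2629, 7839 and 6813 in E13.5 female replicates, and 11330, 1703 and 23141 in E10.5 replicates. Male replicate 2 and E10.5 replicate 2 therefore stood apart from their groups as short lists. They held 13 and 195 of the 335 kept bins, against 334 and 335 for the other male lists and 335 for each of the other E10.5 lists. The H3K9me3 lists covered between 0.351 Mb (E10.5 replicate 3) and 74.0 Mb (male replicate 1) of the autosomes. No list was a copy of another, as at most 7 peaks had the same ends in any pair.

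The rule separated the groups by very different margins. E13.5 male cells held 527 bins, of which 63.6% were kept, E13.5 female cells held 907, of which 36.9% were kept, and E10.5 cells held 4783, of which 7.00% were kept. Both E13.5 groups shared 343 bins, so only 8 bins common to the sexes at E13.5 missed the requirement at E10.5. The limiting group was nearly always an E13.5 one: male lists set the shortest qualifying length in 199 kept bins, female lists in 134 and E10.5 lists in 2. Among kept bins, 79 were held in 6 of the 9 lists, 142 in 7, 106 in 8, and 8 in all 9. Since male replicate 2 was so short, male replicates 1 and 3 alone supplied the male requirement in 322 bins.

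Leaving out a list showed how far membership rested on it, with every remaining list of its group then required. Without male replicate 1 or male replicate 3 the count of kept bins dropped to 13 and 12, without E10.5 replicate 1 or 3 it was 195 each time, and without female replicate 2 or 3 it was 179 and 188. Without male replicate 2 there were 334 bins, without E10.5 replicate 2 there were 335, and without female replicate 1 there were 310. A list that was left out can be read as an independent look at bins chosen by the other 8. Female replicates 1, 2 and 3 held 55.2%, 95.5% and 91.0% of such bins, whereas they held 0.193%, 0.664% and 0.505% of all autosomal bins. E10.5 replicates 1 and 3 held every one of the 195 bins chosen without them, against 2.04% and 3.41% of all autosomal bins. E10.5 replicate 2 held 58.2% of 335, against 0.263% of all autosomal bins. Male replicates 1 and 3 held 12 of 13 and 12 of 12 such bins, against 0.321% and 0.508% of all autosomal bins. Male replicate 2 held 12 of 334 such bins, or 3.59%, against 0.00688% of all autosomal bins.

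Bins close to the threshold were common. The 3 kept bins nearest to it began at 17490001 on chromosome 7, 120250001 on chromosome 5 and 126120001 on chromosome 8, with 1005, 1008 and 1011 bp in the list that decided them. The 3 nearest bins outside it began at 126140001 on chromosome 8, 116860001 on chromosome 11 and 118820001 on chromosome 5, with 999, 993 and 992 bp. In all, 38 kept bins had a deciding length of 1 to 1.1 kb and 46 other bins one of 0.9 to 1 kb, while the median over kept bins was 1.547 kb.

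Kept regions were short and scattered. Single bins made up 166 of the 228 regions (72.8%), 40 regions had 2 bins, and the 22 regions of 3 or more bins together contained 89 bins. The median distance from a region to its nearest neighbour was 1550 kb, although 50 regions (21.9%) had a neighbour within 100 kb and 101 (44.3%) had one within 1 Mb. Along the chromosomes, 36 regions (15.8%) lay in the distal 10% of their chromosome and 8 (3.51%) in the 10% next to the centromere. Counted as bins, 15.2% of the kept ones lay in the distal stretch and 3.88% in the proximal one, close to the 16.6% and 3.58% of all bins held at E10.5.

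Chromosomes differed in their share of kept bins. Chromosomes 6, 5, 2 and 11 held the most, and relative to its length chromosome 19 held 2.17 times its share, chromosome 6 held 2.07 times, chromosome 5 held 1.89 times and chromosome 11 held 1.76 times. Chromosomes 10, 16 and 14 held the least for their length, at 0.284, 0.300 and 0.354 times their share. Much of this ordering was already present at E10.5: over the 19 autosomes the number of kept bins had a Spearman rho of 0.884 with the number of E10.5-held bins, of 0.616 with the number of protein-coding genes in RefSeq and of 0.395 with chromosome length. These are descriptions over 19 chromosomes, which share the same 9 lists. The share of E10.5-held bins that were kept ran from 3.23% on chromosome 10 to 13.9% on chromosome 6. No bin of 16666 on chromosome X met the same rule, where male lists held 0 bins, female lists 22 and E10.5 lists 96.

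**Figure D1:**
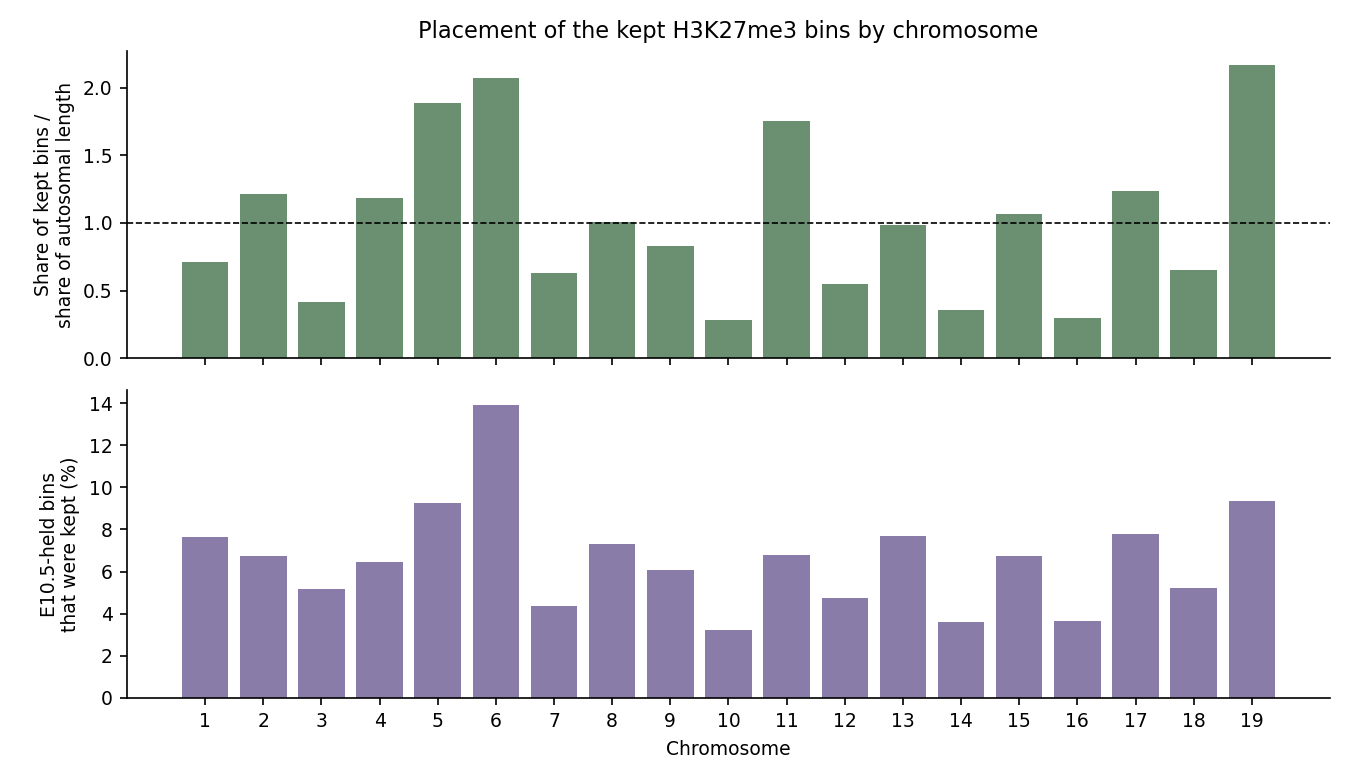
Placement of the kept bins on autosomes 1 to 19. The upper bars give the share of kept bins divided by the share of autosomal length (dashed line at 1) and the lower bars the percentage of E10.5-held bins that were kept; chromosome 6 is high in both, at 2.07 and 13.9%, and chromosome 10 is lowest in both, at 0.284 and 3.23%.

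Kept bins were dense in some places, in part because long regions hold many of them. Counted in windows of 1 Mb, the densest began at 96000001 on chromosome 11, 52000001 on chromosome 6 and 83000001 on chromosome 6, each with 10 kept bins. A single long region supplied 9 of the 10 bins on chromosome 11 and 8 of those at 52000001 on chromosome 6. E10.5 cells held 39, 16 and 25 bins in those windows, so the kept bins were a larger part of the E10.5-held ones in the window at 52000001 on chromosome 6 than in that on chromosome 11. The kept bins occurred in 183 such windows in all. No H3K9me3 peak touched the kept bins of these 3 windows in any of the 9 H3K9me3 lists.

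Length in H3K27me3 peaks was lower at E13.5 than at E10.5 in nearly all kept bins. On average a kept bin had 2.47, 0.191 and 3.01 kb in peaks in male replicates 1, 2 and 3, then 1.39, 3.097 and 2.64 kb in female replicates, and 7.62, 2.04 and 8.36 kb in E10.5 replicates. E10.5 replicates 1 and 3 were far above every E13.5 list, while E10.5 replicate 2 fell among them. Group means were 1.89 ± 1.50 kb in E13.5 males, 2.37 ± 0.883 kb in E13.5 females and 6.01 ± 3.45 kb at E10.5 (SD, n = 3 each), and the mean over the 6 E13.5 lists was 3.88 kb below that of E10.5. Leaving out E10.5 replicate 2 made that difference -5.86 kb, and leaving out male replicate 2 made it -3.48 kb.

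Per bin, the mean was lower at E13.5 in 329 of 335 kept bins and higher in 6, with a median difference of -4.03 kb. Across the 9022 autosomal bins held by at least 1 list, 96.9% were lower at E13.5 and 3.07% higher, so the direction alone does not set the kept bins apart. In 60 kept bins every E13.5 list was below every E10.5 list and in 1 every E13.5 list was above, against a background of 5.58% and 0.0554%. Against E10.5 replicates 1 and 3 only, all 6 E13.5 lists were lower in 307 of the 335 bins (91.6%, background 66.5%) and in 216 of the 228 regions. Since kept bins had to be held at E10.5, nothing is read from these shares. Taken over regions, the ratio of mean length at E13.5 to that at E10.5 had a median of 0.335, with 0.220 at the 10th percentile and 0.497 at the 90th.

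E10.5 replicate 2 bears directly on this comparison. In bins that both lists held, the median difference to E10.5 replicate 2 was -0.529, -1.16 and -0.174 kb for male replicates 1, 2 and 3 and -1.11, -0.0335 and -0.354 kb for female replicates. These medians rest on 194, 10 and 195 bins for the male lists and 128, 190 and 182 bins for the female lists. Compared over the same kind of bins with E10.5 replicates 1 and 3, the medians ran from -4.34 to -6.96 kb. Over all 335 bins, 4 of the 6 E13.5 lists had more H3K27me3 than E10.5 replicate 2 at the median. The E13.5 minus E10.5 difference in mean length was smaller when every list was cut to the same number of peaks. That step also chose the bins anew, so list length and the changed set of bins cannot be told apart. With the 1703 top-ranked peaks of every list, 49 bins were kept, with 2.68, 0.896 and 3.13 kb in male lists, then 1.82, 2.35 and 2.22 kb in female lists, and 6.36, 2.62 and 7.01 kb in E10.5 lists, a difference of -3.15 kb. With 359 peaks of every list, 19 bins were kept, with 3.08, 1.81 and 3.65 kb in male lists, then 2.00, 2.71 and 2.61 kb in female lists, and 5.04, 1.95 and 4.16 kb in E10.5 lists, a difference of -1.07 kb. E10.5 replicates 1 and 3 were above every E13.5 list at both list lengths, and E10.5 replicate 2 was within their range. The part of sequencing depth, which is unknown, was not tested.

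Peaks inside kept regions were narrower at E13.5. The median width of peaks touching a kept region was 829, 599.5 and 883 bp in male replicates 1, 2 and 3, then 643, 811.5 and 754 bp in female replicates, and 4424, 1285 and 4718 bp in E10.5 replicates. With all deposited peaks the groups did not overlap in this measure, as even E10.5 replicate 2 was above every E13.5 list, and E13.5 minus E10.5 was -2722 bp. With the 1703 top-ranked peaks of every list the difference was -1296 bp and the groups still did not overlap. With 359 peaks it was -588 bp and they did overlap, since E10.5 replicate 2, at 1002 bp, was below male replicates 1 and 3 (1120 and 1478 bp) and female replicate 3 (1214 bp). The widest such peak was 5827, 4666 and 7253 bp in male lists, then 4267, 5484 and 7033 bp in female lists, and 43733, 11146 and 42589 bp in E10.5 lists. Peaks of 5 kb or more made up 3.19%, 0% and 5.61% of the length in male lists, then 0%, 1.44% and 1.45% in female lists, and 82.5%, 18.1% and 87.2% in E10.5 lists. In E10.5-held bins that were not kept, median widths were lower than in kept regions in every list, from 413 to 603.5 bp over the 6 E13.5 lists and from 910 to 1475 bp over the 3 E10.5 lists. Such bins missed the rule in an E13.5 group, so their lower E13.5 widths are partly built in.

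**Figure D2:**
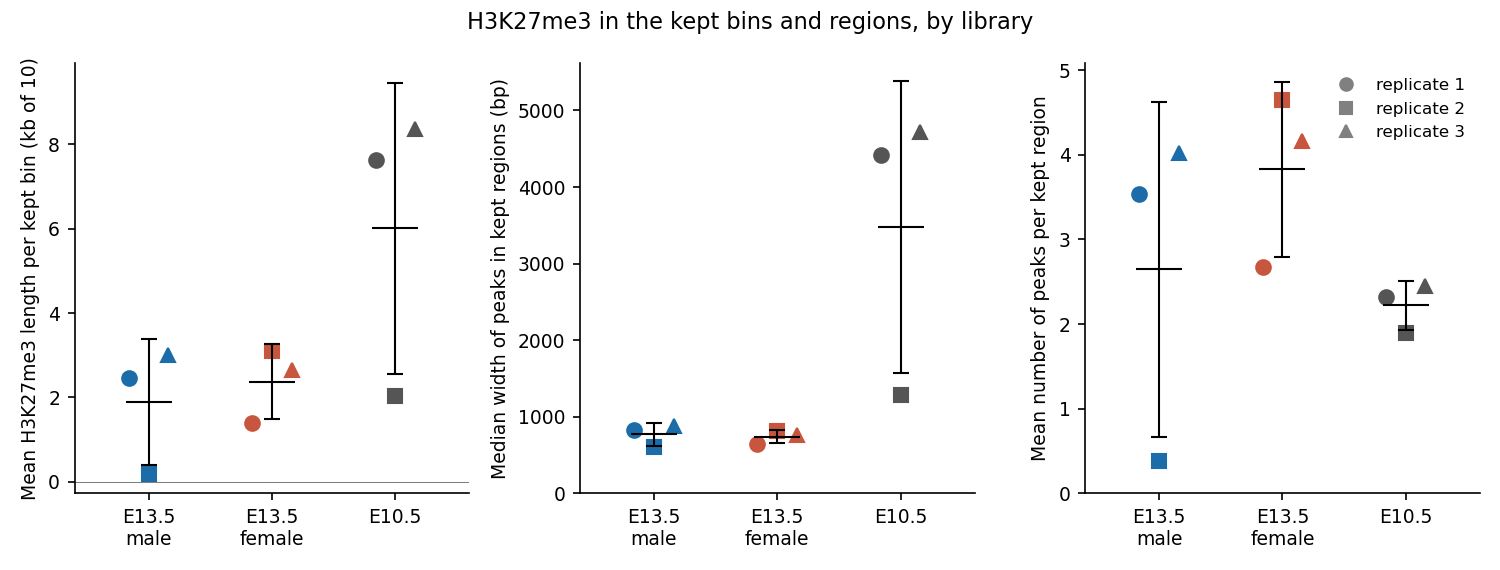
H3K27me3 in the kept bins and regions by library, with E13.5 male, E13.5 female and E10.5 from left to right; points are peak lists, horizontal bars group means and whiskers 1 SD (n = 3). The left panel gives mean kb in peaks per 10-kb kept bin, the middle panel the median width in bp of peaks touching kept regions, where all 6 E13.5 lists lie at or below 883 bp and the E10.5 lists at 1285 bp or above, and the right panel the mean number of peaks per kept region.

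In kept regions, broad E10.5 peaks overlapped several short peaks in most E13.5 lists. The rule required E13.5 peaks in these bins, so whether a broad peak was overlapped at all was largely fixed by it. Broad E10.5 peaks outside kept regions were not examined. E10.5 replicate 1 had 239 peaks of at least 5 kb touching kept regions, and a peak of male replicates 1, 2 and 3 overlapped 234, 43 and 233 of them, and a peak of female replicates 210, 236 and 234. Each of these broad peaks contained on average 2.88, 0.238 and 3.45 peaks of the male lists and 2.41, 4.14 and 3.57 peaks of the female lists. Those short peaks covered 24.3%, 1.27% and 30.2% of the broad peaks' length in male lists and 15.1%, 33.4% and 27.2% in female lists. E10.5 replicate 3 gave the same picture with 267 broad peaks, of which the E13.5 lists other than male replicate 2 overlapped 223 to 264. E10.5 replicate 2 had only 21 broad peaks, and 19 to 21 of them were overlapped by the same 5 lists.

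The number of peaks per region moved the other way from their width. Kept regions had on average 3.54, 0.377 and 4.02 peaks in male replicates 1, 2 and 3, then 2.67, 4.65 and 4.17 in female replicates, and 2.32, 1.89 and 2.45 in E10.5 replicates. All 5 E13.5 lists other than male replicate 2 had more peaks per region than any E10.5 list. The longest peak of a region had a median of 1519, 0 and 1841 bp in male lists, then 891, 1683 and 1548.5 bp in female lists, and 10103.5, 1404 and 11847 bp in E10.5 lists. Here E10.5 replicate 2 was below 4 of the E13.5 lists.

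Peaks of E10.5 replicates 1 and 3 covered most of the kept length, and most of the E13.5 peak length lay inside them. Between 88.8% and 95.6% of each E13.5 list's length in kept bins was inside peaks of E10.5 replicate 1, which covered 76.2% of the kept length. For E10.5 replicate 3 the range was 79.5% to 97.2%, with 83.6% of the kept length covered, and male replicate 2 was the one list below that coverage. For E10.5 replicate 2 it was 28.5% to 59.1%, with 20.4% covered. Divided by that coverage, the shares were 1.17 to 1.25 for E10.5 replicate 1, 0.952 to 1.16 for replicate 3 and 1.40 to 2.89 for replicate 2. The high shares in replicates 1 and 3 are thus close to what their coverage alone would give.

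The kept regions were lined up on their E10.5 domains. Each of the 228 regions contained an interval covered by both E10.5 replicates 1 and 3, with a median length of 8532 bp, and its centre was therefore in a peak of those lists by construction. At that centre 29.4%, 2.19% and 39.0% of regions were inside a peak of male replicates 1, 2 and 3, then 17.1%, 43.9% and 31.1% inside a peak of female replicates, and 27.6% inside a peak of E10.5 replicate 2. At 10 kb to the right of it the shares were 7.46%, 1.32% and 11.0% in male lists, then 6.14%, 14.04% and 11.8% in female lists, and 38.6%, 7.02% and 53.5% in E10.5 replicates 1, 2 and 3. Since 166 of the 228 regions are single bins of 10 kb, that point mostly lies outside the kept bins, so the lower shares there follow from the choice of bins and nothing is read from them. At 10 kb the 6 E13.5 lists were below E10.5 replicates 1 and 3, and E10.5 replicate 2 was among them.

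**Figure D3:**
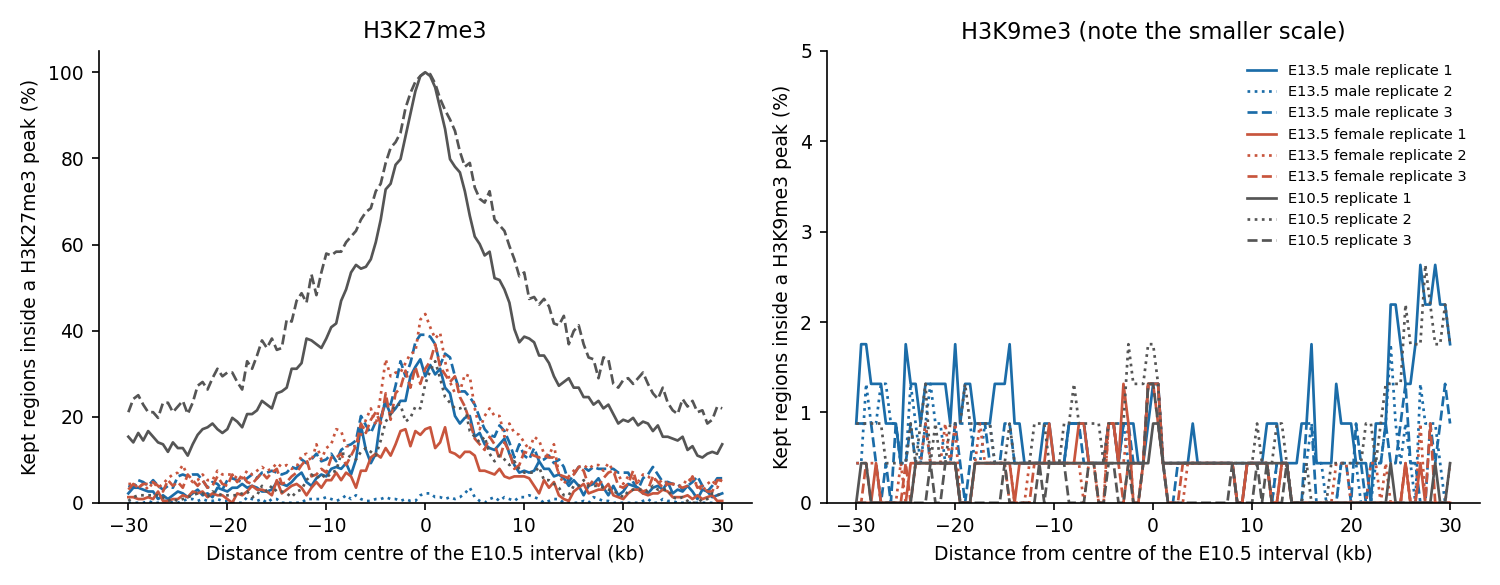
Percentage of the 228 kept regions inside a peak at each distance (kb) from the centre of the interval shared by E10.5 replicates 1 and 3, for H3K27me3 (left) and H3K9me3 (right, smaller scale); lines are single lists, coloured by group. H3K27me3 at the centre is 100% by construction in the E10.5 lists that define it and 2.19 to 43.9% in the E13.5 lists, and H3K9me3 stays below 3% throughout.

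How much H3K27me3 a bin had at E10.5 went with whether it was kept. Of the bins held at E10.5 with a mean of under 2 kb over the 3 E10.5 lists, 7 of 1685 (0.415%) were kept. The share was 1.59% at 2 to 4 kb, 13.9% at 4 to 6 kb, 45.5% at 6 to 8 kb and 71.2% (37 of 52) at 8 to 10 kb. Kept bins had 7.62, 2.04 and 8.36 kb on average in E10.5 replicates 1, 2 and 3, whereas the 4448 E10.5-held bins that were not kept had 3.33, 0.291 and 4.77 kb. E10.5 replicates 1 and 3 covered at least 90% of the bin in 34.03% and 48.4% of the kept bins, and no kept bin reached that cover in any E13.5 list. At least 5 kb was covered by some E13.5 list in 75 kept bins.

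Kept bins also took a larger share of each short list. They contained 33.6%, 41.4% and 25.4% of the autosomal peak length of male replicates 1, 2 and 3, then 30.9%, 20.6% and 22.1% in female replicates, and 13.1%, 33.1% and 8.06% in E10.5 replicates. The share at E10.5 was lowest in the longest list and highest in the shortest. By the authors' peak score in column 9, peaks in kept regions had a median rank percentile within their own list of 56.4, 31.9 and 62.1 in male lists, then 56.3, 63.5 and 65.1 in female lists, and 85.2, 51.9 and 94.9 in E10.5 lists. Across the 335 bins, covered lengths had a Spearman rho of 0.162 to 0.426 between pairs of male lists, of 0.245 to 0.346 between female lists, of 0.328 to 0.726 between E10.5 lists and of 0.0589 to 0.341 between a male and a female list. Replicates 1 and 3 gave the highest value among male and among E10.5 lists. These values describe bins of shared lists and have no p-value.

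Lengths in the sexes at E13.5 were close, and their order depended on 1 list. With all male lists the male mean was lower than the female mean in 237 bins and higher in 98, with a median male minus female difference of -0.444 kb. Without male replicate 2 it was lower in 124 bins and higher in 210, with a median of 0.316 kb. The group means of 1.89 and 2.37 kb differed by less than 1 SD of either group.

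The longest kept region spanned 90 kb on chromosome 11, from 96110001 to 96200000. It had 25.9, 0.742 and 26.9 kb in peaks in male replicates 1, 2 and 3, then 23.1, 31.3 and 27.8 kb in female replicates, and 77.9, 3.58 and 87.7 kb in E10.5 replicates. E10.5 replicates 1 and 3 thus covered most of it, while E10.5 replicate 2 was below 5 of the E13.5 lists. It was divided into 19, 2 and 32 peaks in male lists, then 22, 33 and 31 in female lists, and 9, 4 and 4 in E10.5 lists. The longest of these peaks reached 5140 bp in the E13.5 lists (female replicate 2) and 35750 bp in the E10.5 lists (replicate 3). Mean length was 22.6 ± 11.0 kb at E13.5 (SD, n = 6) and 56.4 ± 46.0 kb at E10.5 (SD, n = 3), a difference of -33.8 kb and the largest fall of any kept region.

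A region of 80 kb lay on chromosome 6 from 52130001 to 52210000. It had 18.8, 1.29 and 29.4 kb in male replicates 1, 2 and 3, then 15.7, 29.1 and 23.6 kb in female replicates, and 66.6, 15.2 and 74.6 kb in E10.5 replicates. The difference of means was -32.5 kb, with 19.6 ± 10.52 kb at E13.5 (SD, n = 6) and 52.1 ± 32.2 kb at E10.5 (SD, n = 3). On chromosome 15, from 102750001 to 102810000, a region of 60 kb had 24.5, 2.96 and 26.4 kb in male lists, then 11.9, 26.7 and 19.1 kb in female lists, and 58.2, 24.4 and 58.9 kb in E10.5 lists, a difference of -28.6 kb. E10.5 replicate 2 was within the range of the E13.5 lists there, and the other E10.5 lists were far above it. On chromosome 2, from 74500001 to 74550000, a region of 50 kb had 14.7, 0.622 and 17.2 kb in male lists, then 6.69, 17.8 and 11.6 kb in female lists, and 43.1, 13.3 and 47.3 kb in E10.5 lists, a difference of -23.1 kb. The 5th of the largest falls, of 16.5 kb, was on chromosome 2 from 33470001 to 33510000, with 7.32, 0 and 12.6 kb in male lists, then 4.36, 16.6 and 8.44 kb in female lists, and 32.0, 5.35 and 36.8 kb in E10.5 lists.

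The 4 Hox clusters, whose transcription factors set position along the body axis, lie on chromosomes 6, 11, 15 and 2 in RefSeq. The longest kept regions of those chromosomes are the 80, 90, 60 and 50 kb regions above, and 8 of the 9 regions of at least 40 kb were on these 4 chromosomes. Of the 22 regions of at least 30 kb 9 were there (40.9%), and of all 228 regions 62 (27.2%). The 8 include regions apart from the longest ones, at 47600001, 47680001 and 83340001 on chromosome 6 and at 33470001 on chromosome 2. A shared chromosome therefore does not place a region at a cluster. An mm9 annotation was not used here, so whether the regions overlap the clusters, or any other gene, was not tested.

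Other long regions lost less. On chromosome 6 from 47680001 to 47730000, 50 kb long, there were 12.8, 1.58 and 18.6 kb in male lists, then 7.23, 15.4 and 14.6 kb in female lists, and 21.9, 6.06 and 20.3 kb in E10.5 lists, a difference of -4.39 kb. Next to it on the same chromosome, from 47600001 to 47640000, there were 11.7, 1.47 and 17.8 kb in male lists, then 5.36, 12.6 and 13.2 kb in female lists, and 21.2, 3.74 and 19.9 kb in E10.5 lists, a difference of -4.60 kb. In E10.5 lists its H3K27me3 lay in 9, 3 and 9 separate peaks, none longer than 3002 bp. This region was therefore already made up of short peaks at E10.5. The region of 40 kb on chromosome 4 from 88410001 to 88450000 had 14.03, 5.68 and 18.3 kb in male lists, then 8.83, 10.6 and 11.9 kb in female lists, and 21.4, 2.70 and 20.6 kb in E10.5 lists, a difference of -3.34 kb. It was the one region among the 10 longest with any H3K9me3 peak.

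The remaining 2 of the 10 longest lay on chromosomes 6 and 19. The 30 kb one on chromosome 19 was taken from 13 regions of that length for its highest mean H3K27me3 length. On chromosome 6 from 83340001 to 83390000, male lists had 14.8, 0 and 23.1 kb, female lists 7.87, 28.3 and 19.5 kb, and E10.5 lists 36.7, 0 and 45.8 kb. The difference of means was -11.9 kb. The ratio of mean length at E13.5 to that at E10.5 was 0.567 there, above the 90th percentile of 0.497 over regions. On chromosome 19 from 43670001 to 43700000, male lists had 6.88, 2.23 and 9.51 kb, female lists 8.81, 10.7 and 7.41 kb, and E10.5 lists 26.7, 12.7 and 30 kb. In the chromosome 19 region every E10.5 list was above every E13.5 list, and the ratio was 0.328, near the median of 0.335 over regions.

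**Figure D4:**
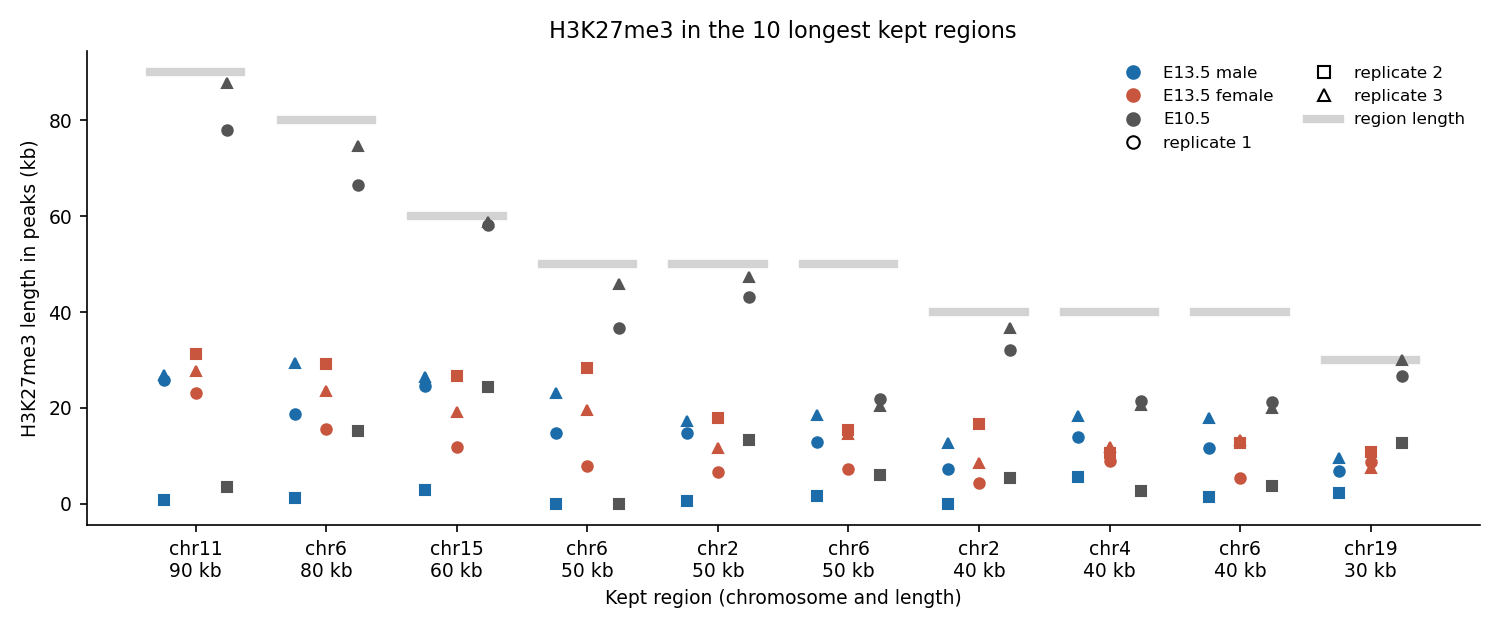
H3K27me3 length in peaks (kb) in the 10 longest kept regions, labelled by chromosome and length; in each, E13.5 male, E13.5 female and E10.5 lists run from left to right, symbols give the replicate and grey bars the region's length. E10.5 replicates 1 and 3 lie above all E13.5 lists in each of the 10 regions, while E10.5 replicate 2 lies above all E13.5 lists in the chromosome 19 region only.

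In 3 regions the mean was higher at E13.5, and the differences were small. On chromosome 7 from 17490001 to 17500000, male lists had 1.00, 0 and 2.47 kb, female lists 0.908, 3.28 and 4.15 kb, and E10.5 lists 1.14, 0 and 3.84 kb, a difference of 0.309 kb within overlapping groups. On chromosome 4 from 118220001 to 118230000, all 6 E13.5 lists had 1.32 to 1.33 kb and E10.5 lists had 1.32, 0.660 and 1.31 kb, so that the difference of 0.228 kb came from E10.5 replicate 2. On chromosome 2 from 98500001 to 98510000, the E13.5 mean was 1.86 ± 0.0794 kb (SD, n = 6) and the E10.5 mean 1.73 ± 0.128 kb (SD, n = 3). The smallest differences below 0 were -0.623 kb on chromosome 6 from 4680001 to 4700000 and -0.693 kb on chromosome 11 from 58040001 to 58050000, and E10.5 replicate 2 had no peak in either.

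Most kept bins had no H3K9me3, and a few had much of it. Of the 335, 318 (94.9%) had no H3K9me3 peak in any of the 9 lists, against a background of 82.6% of all autosomal bins and 96.4% of the E10.5-held bins that were not kept, and 214 of the 228 regions had none. By length the kept bins were not poorer, with means over the 9 lists of 0.911% of kept length and 0.915% of other autosomal length in H3K9me3 peaks. By the same measure of 1 kb in 2 or more of 3 lists, 6 kept bins held H3K9me3 in some group, or 1.79%, against a background of 5.66% of all autosomal bins. They numbered 6 in E13.5 males (background 5.65%), 5 in E13.5 females (background 0.341%) and 5 at E10.5 (background 0.225%), and the 5 were shared by all groups (background 0.0651%). The share of kept bins with H3K9me3 was thus below the autosomal background in males and above it in females and at E10.5. Since the same 5 bins counted in every group, this turn came from the background and not from the kept bins.

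Those 6 bins lay in 4 places. Most of the H3K9me3 was in 3 adjoining bins at the start of chromosome 9, from 3000001 to 3030000, where male lists had 28.5, 27.7 and 27.3 kb of H3K9me3, female lists 26.99, 21.4 and 23.2 kb, and E10.5 lists 28.2, 29.99 and 10.05 kb. H3K27me3 in the same 30 kb was 11.0, 19.1 and 8.46 kb in male lists, then 11.6, 7.35 and 6.43 kb in female lists, and 21.2, 19.1 and 7.20 kb in E10.5 lists. The short male replicate 2 list had more H3K27me3 there than any other E13.5 list, and 29.9% of its length in kept bins lay there. Each of the 3 bins was held by all 9 H3K27me3 lists.

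The others had less. The bin on chromosome 2 from 98500001 had 2.48, 3.23 and 2.25 kb of H3K9me3 in male lists, then 2.45, 2.28 and 1.82 kb in female lists, and 0, 5.08 and 1.66 kb in E10.5 lists. The bin on chromosome 4 from 118220001 had 1.00, 1.31 and 1.32 kb in male lists, then 1.28, 1.32 and 1.31 kb in female lists, and 0.651, 1.32 and 1.31 kb in E10.5 lists, close to its H3K27me3 lengths. Both of these bins are also among the 3 regions whose H3K27me3 mean was higher at E13.5. The bin on chromosome 4 from 88410001 had 2.77, 2.33 and 0.808 kb in male lists, then 0, 0.349 and 0 kb in female lists, and 0, 0.313 and 0 kb in E10.5 lists, and was the one bin held in males alone. The region with the next most H3K9me3, on chromosome 1 from 140730001 to 140740000, had at most 1.07 kb in any list. Mappability, copy number and repeat content of these bins were not tested.

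The share of kept length in H3K9me3 peaks did not pass the test in any comparison between groups. It was 1.13%, 1.05% and 0.975% in male replicates 1, 2 and 3, then 0.941%, 0.786% and 0.791% in female replicates, and 0.860%, 1.27% and 0.388% in E10.5 replicates. Male lists were all above female lists, and E10.5 lists spanned both. The means were 1.05 ± 0.0792% in E13.5 males, 0.839 ± 0.0882% in E13.5 females and 0.841 ± 0.443% at E10.5 (SD, n = 3 each). By two-sided exact permutation tests the difference was 0.105 percentage points between E13.5 and E10.5 (p = 0.607, adjusted p = 0.81), 0.211 points between males and E10.5 (p = 0.6, adjusted p = 0.81), -0.00144 points between females and E10.5 (p = 1, adjusted p = 1) and 0.212 points between males and females (p = 0.1, adjusted p = 0.4). An exact test of 3 lists against 3 cannot go below p = 0.1 and one of 6 against 3 not below p = 0.0119, and adjustment was by Benjamini-Hochberg over these 4 comparisons. Without E10.5 replicate 3, the shortest H3K9me3 list, the E13.5 minus E10.5 difference turned to -0.122 points and the male minus E10.5 difference to -0.0156 points. Without E10.5 replicate 2 the female minus E10.5 difference turned to 0.215 points.

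Autosomal H3K9me3 differed far more between lists than the kept share did. All other autosomal bins had 2.99%, 1.75% and 0.952% of their length in H3K9me3 peaks in male lists, then 0.195%, 0.394% and 0.132% in female lists, and 0.0717%, 1.73% and 0.0137% in E10.5 lists. The kept share divided by the share of all autosomal length was accordingly 0.379, 0.597 and 1.02 in male lists, then 4.81, 1.99 and 5.95 in female lists, and 11.8, 0.738 and 27.3 in E10.5 lists. On this ratio the differences were -10.8 for E13.5 minus E10.5 (two-sided exact permutation p = 0.0595, adjusted p = 0.2) and -3.59 for males minus females (p = 0.1, adjusted p = 0.2), so the sign of both was opposite to that of the shares.

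The kept share was compared within each list with the rest of the autosomes and with E10.5-held bins that were not kept, many of which still had H3K27me3 in some E13.5 list. Kept bins had more H3K9me3 than all other autosomal bins in 6 of 9 lists and less in 3, with a mean difference of -0.00424 ± 0.872 percentage points (SD, n = 9, two-sided exact permutation p = 0.984, adjusted p = 0.984). The 3 lists with less were male replicates 1 and 2 and E10.5 replicate 2, which are the 3 longest H3K9me3 lists. The sign of this difference depended on how kept bins were chosen. It was positive and past the threshold at 1.80 points with peaks at or above their list's median score and 33.0 points with all 3 lists required per group (exact permutation p = 0.00391 each, the smallest possible). These settings kept 121 and 8 bins, and the 8 include the 3 adjoining chromosome 9 bins that carried most of the H3K9me3. The difference was positive but short of the threshold at 0.558 points with at least 2 kb in peaks (exact permutation p = 0.109), and stayed negative at -0.533 points with any overlap (exact permutation p = 0.145).

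Against the 4448 E10.5-held bins that were not kept, kept bins had more H3K9me3 in 9 of 9 lists. The bins that were not kept had 0.249%, 0.115% and 0.127% in male lists, then 0.0464%, 0.0626% and 0.0333% in female lists, and 0.0294%, 0.176% and 0.00352% in E10.5 lists. The mean difference was 0.817 ± 0.195 percentage points (SD, n = 9, two-sided exact permutation p = 0.00391, the smallest that 9 lists allow, adjusted p = 0.00781 over these 2 comparisons). This difference rested on the 6 bins with H3K9me3, which carried 86.0% to 100% of the H3K9me3 length in kept bins, and the 3 chromosome 9 bins alone carried 70.3% to 97.7%. In the 329 kept bins left without them, the share was 0.0964%, 0.0141% and 0.0307% in male lists, then 0.0250%, 0.0302% and 0.00693% in female lists, and 0%, 0.182% and 0% in E10.5 lists. It was then below that of all other autosomal bins in 9 of 9 lists and below that of the E10.5-held bins that were not kept in 8 of 9, with mean differences of -0.872 and -0.0508 points. Since those bins were removed for their H3K9me3, these last values have no test.

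**Figure D5:**
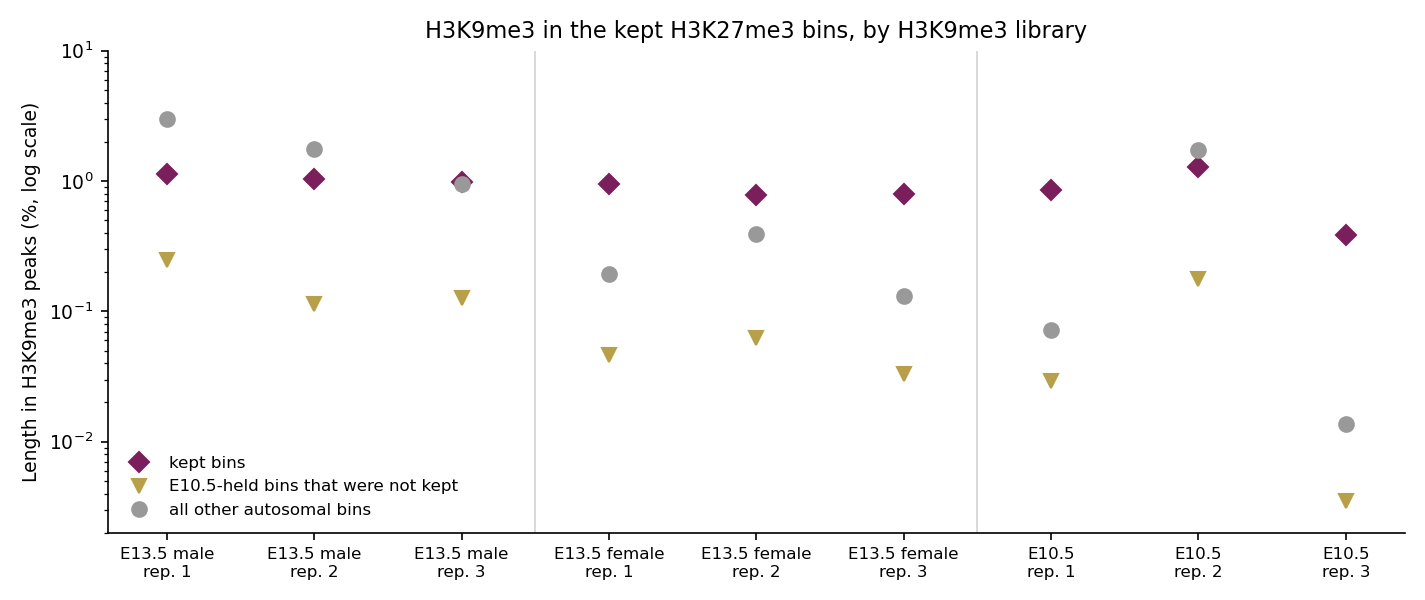
Percentage of length in H3K9me3 peaks (log scale) for each of the 9 H3K9me3 lists, with E13.5 male, E13.5 female and E10.5 from left to right. Kept bins (diamonds) stay between 0.388% and 1.27%, above the E10.5-held bins that were not kept (triangles) in every list, while all other autosomal bins (circles) range from 0.0137% to 2.99%.

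The lower H3K27me3 length at E13.5 did not depend on the 6 bins, while peak widths were not recomputed without them. In the other 329 kept bins the mean H3K27me3 length was 1.87 ± 1.54 kb in E13.5 males, 2.38 ± 0.905 kb in E13.5 females and 6.06 ± 3.52 kb at E10.5 (SD, n = 3 each). The 6 bins themselves had 17.9 ± 4.70 kb of H3K27me3 in total in E13.5 males, 12.96 ± 2.24 kb in E13.5 females and 19.995 ± 7.49 kb at E10.5 (SD, n = 3 each). They contributed 36.2% of the H3K27me3 length that male replicate 2 had in kept bins, and 0.422% to 3.33% in the other 8 lists.

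A further group of bins was held in all 9 H3K27me3 lists and held no H3K9me3 in any group. Beside the chromosome 9 and chromosome 2 bins above, these were the bins that begin at 173000001 on chromosome 1, 88420001 on chromosome 4, 120880001 on chromosome 5 and 91270001 on chromosome 9, making 8 in all. The chromosome 4 bin adjoins the one on that chromosome that held H3K9me3 in males. These bins were named because the short lists held them too, after their values had been seen.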

How the data were processed

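Peak lists of 18 ChIP libraries were used, and the 13 input samples were not analysed here. Per the file headers' peak names, each library's broad peaks were called by the authors against an input, so lists are per sample and not pooled; E10.5 H3K27me3 replicate 3 was called against an input named for H3K9me3. The label of E10.5 H3K9me3 input replicate 2 gives stage E13.5 against its title, and E10.5 H3K9me3 replicate 2, the longest E10.5 H3K9me3 list at 42.7 Mb against 1.80 and 0.351 Mb, was called against an input named for E10 and H3K9me3; whether this is that input was not tested. Per the submitters' processing notes the build is mm9, and the tools listed, without their order or part in the work, are MACS2 2.1.0, BWA 0.7.5a, deepTools 3.3.0, CASAVA 1.8.4, SAMtools and Picard. A peak threshold was not given in the sources used here. Each deposited score is a value the authors gave a peak; its scale is not known, and it was used only to rank or filter peaks within a list.

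Overlapping peaks were merged and their length summed in 10-kb bins (Python 3.11.15, numpy 2.4.6, pandas 2.3.3). Autosomal length, 2472 Mb, was taken from the last peak ends. Widths are of whole peaks that touch a kept region. H3K9me3 shares were compared by two-sided exact permutation of lists, or by flipping signs within lists, with Benjamini-Hochberg adjustment at 0.05. The number of peaks, not depth, is the one measure of precision at hand. The steps were tested on simulated data. Regions named are the 10 longest, the 5 largest falls, the 5 largest rises or smallest falls, the 5 with most H3K9me3, the 3 densest 1-Mb windows and 3 bins on each side of the threshold. The members, lists and rules were chosen with earlier results of these data known. RefSeq of GRCm38.p6 gave only names, types and chromosomes of genes, since its positions differ from mm9. Replicate numbers were not used to pair the H3K9me3 lists in the main tests. Deviations of same-numbered lists from their group means, over kept bins, had r of -0.217 to 0.223 for H3K27me3 and -0.0914 to 0.183 for H3K9me3. As 318 of the 335 kept bins had no H3K9me3 peak, the H3K9me3 values rest on few bins. They cannot settle whether lists were paired by number. The 3 pairs of male and E10.5 H3K27me3 lists had r of 0.105 to 0.223, and no H3K27me3 value was tested. Alternatives were other thresholds, grids, bin sizes, score filters, equal list lengths, lists left out and a replicate block.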

Additional observations from a re-analysis of the deposited data

Results flagged for a closer look

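In 34 groups of values checked for a list far from the others, 6 stood apart. The cut-off flags about 1 in 20 by chance among independent values from a single normal group. These values share lists and mix groups, and some regions were picked as extreme, so that rate does not apply. The median rank percentile of kept-region peaks was 31.9 in male replicate 2, against 56.3 to 65.1 in the other 5 E13.5 lists. The share of H3K27me3 length in kept bins that lay inside peaks of the H3K9me3 list with the same group and replicate number was 34.97% in male replicate 2, far from both the other 5 E13.5 lists and the other 8 lists, which had at most 3.27%. The longest kept region, on chromosome 11 from 96110001, had 0.742 kb of H3K27me3 in male replicate 2, against 23.1 to 31.3 kb in the other E13.5 lists. The region on chromosome 1 from 140730001 had 3.73 kb in female replicate 3, against at most 1.37 kb in the other E13.5 lists. The ratio of the kept to the autosomal H3K9me3 share was 27.3 in E10.5 replicate 3, the shortest H3K9me3 list, against at most 11.8 in the other 8. The causes were not tested.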

How the results depend on the processing

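The count of 335 kept bins moved to 115 with at least 2 kb in peaks, 1134 with any overlap, 8 with all 3 lists required, 121 with peaks at or above their list's median score, 62 with a score of at least 20, and 19 and 49 with the 359 or 1703 top-ranked H3K27me3 peaks of each list. With lists left out in turn it ran from 12 to 335. The E13.5 minus E10.5 difference of -3.88 kb per kept bin stayed negative in every alternative and moved by more than 1 pooled SD only with the 359 top-ranked peaks, to -1.07 kb; leaving out lists gave -5.86 to -2.13 kb. The difference in median width, -2722 bp, also stayed negative, at -4723 bp with 2 kb, -1400 bp with any overlap, -1058 bp with all 3 lists, -5530 bp with 5-kb bins, -588 bp with 359 peaks and -1296 bp with 1703 peaks, and at -3818 to -1134 bp with lists left out.

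Differences in H3K9me3 share between groups stayed short of the threshold in every alternative. For the comparisons of 3 lists against 3 or fewer this was fixed in advance, as their p cannot go below 0.1. Only the E13.5 minus E10.5 comparison could have passed, and not with an H3K9me3 list left out. The outcome therefore says little about how stable these results are. The female minus E10.5 difference of -0.00144 points turned to 1.31 with all 3 lists, 0.00433 with the grid shifted, 0.0999 with 5-kb bins, 0.0798 with the median score, 0.202 with a score of 20, 0.66 with 359 peaks and 0.256 with 1703 peaks. Taken as a ratio to the autosomal share, 3 differences turned: -10.8 for E13.5 minus E10.5, -12.6 for male minus E10.5 and -3.59 for male minus female. With lists left out, the differences ran from -0.122 to 2.87 points (E13.5 minus E10.5), -0.228 to 1.05 (female minus E10.5), -0.0156 to 4.70 (male minus E10.5) and 0.171 to 3.65 (male minus female).

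The kept minus other autosomal difference turned positive at 0.558 points with 2 kb, 33.0 with all 3 lists, 0.540 with 5-kb bins, 1.80 with the median score, 4.36 with a score of 20, 14.9 with 359 peaks and 5.75 with 1703 peaks, and ran from -0.103 to 22.7 with lists left out. The difference of 0.817 points to E10.5-held bins that were not kept was positive and past the threshold in each of these, at 0.176 points with any overlap, 1.37 with 2 kb, 33.9 with all 3 lists, 0.394 with the grid shifted, 1.34 with 5-kb bins, 2.30 with the median score, 4.53 with a score of 20, 12.9 with 359 peaks and 5.67 with 1703 peaks. It ran from 0.782 to 23.5 with lists left out (adjusted exact permutation p 0.00391 to 0.0156), and it turned to -0.0508 points without the 6 bins that carry H3K9me3, an alternative chosen after seeing the data. With all 3 lists required, 3 of the 8 bins kept were the adjoining chromosome 9 bins. The causes were not tested.

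With the replicate number as a block, the 4 differences between groups were the same and the exact permutation p-values were 0.593, 1, 0.5 and 0.25 (adjusted p = 0.79, 1, 0.79 and 0.79). Exact sign flips over 3 blocks cannot go below p = 0.25. None of the 4 comparisons could pass after adjustment, so the block decides nothing about the calls. Paired by number, the H3K27me3 differences were again -3.88 kb and -2722 bp.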

Other observations

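Of the 8 bins that both E13.5 groups held and E10.5 cells did not, 2 adjoin on chromosome 10 from 57680001 to 57700000. They had 6.60, 4.07 and 8.23 kb of H3K27me3 in male replicates 1, 2 and 3, then 5.60, 10.4 and 8.95 kb in female replicates, and no H3K27me3 peak in the 3 E10.5 lists. A further bin, on chromosome 8 from 56200001 to 56210000, had 1.43, 1.15 and 4.99 kb in male lists, then 2.58, 3.88 and 3.61 kb in female lists, and 0, 0 and 0.593 kb in E10.5 lists. The other 5 bins had up to 0.842 kb in E10.5 replicate 1 and 1.27 to 7.82 kb in E10.5 replicate 3, and E10.5 replicate 2 had no peak there, so they missed the requirement by 1 list.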
